A study of Mus musculus with 23 samples.

Results

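The expression of 9 lymphoma lines was compared with that of 7 wild-type spleens, and the knockout spleens were placed on the path between them. Genes that had already moved partway toward the lymphoma level in knockout spleen were set beside genes that had moved only in the lines and genes that had moved the opposite way. The lines and wild-type spleens made up 16 of the 22 samples and 17 of the 23 arrays of the series. They were taken by their labels, and the 2 arrays that carry the name of the same line (number 8 here) were averaged.

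All samples were total RNA on Agilent one-colour mouse arrays from mice of the mixed strain C57BL/6 x 129 that lacked Cd3e, which codes for part of the T cell receptor complex. The lines (ATMKO.CD3eKO, sex not determined) had been established from spleens with tumours and were grown in suspension in supplemented RPMI1640, so they are cultured cells, while both other groups are whole tissue. The 6 knockout spleens (ATMKO.CD3eKO) carried no tumour and all came from females. The 7 wild-type spleens (ATMWT.CD3eKO) came from 4 males and 3 females. No agent was given, ages are not stated, and the RNA integrity number of every sample was above 8. The labels do not say which animals gave which lines, so each line and each spleen was taken as 1 sample, and p-values measure the spread between these samples.

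ATM is a kinase that is switched on by broken DNA and passes the alarm to p53, to cell cycle checkpoints and to repair. Mice without it are prone to lymphoid tumours, and the title of the study concerns lymphomas of B cells in mice without ATM and T cells and their dependence on NF-kB, a transcription factor that carries survival and activation signals in B cells. Spleen is a mixture of B cells, myeloid cells, red cell precursors, natural killer (NK) cells and stroma, whereas a line grows from 1 kind of cell. In bulk RNA of this kind, fewer cells of a type and less RNA per cell cannot be told apart.

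Levels are log2 signals minus the log2 of the array's own 75th percentile. Tests covered 13765 genes with a probe well above background in at least 6 of the 22 samples. Between 54.9% and 62.3% of spots were well above background on the arrays of the lines, and between 61.7% and 67.7% on those of the spleens. The arrays lay on 6 slides, 5 of which held all 3 groups. Atm itself was -0.67 to 0.00 (median -0.14) in wild-type spleens, -2.69 to -2.07 (median -2.42) in knockout spleens and -4.38 to -2.77 (median -3.11) in the lines, with no overlap between any of the groups. B cell identity was checked with 27 B cell markers, each of which was well above background in at least 1 line, and their summed linear level ran from 997 to 1394 in the lines, from 886 to 1251 in knockout and from 928 to 1351 in wild-type spleens. Cd79b, a chain of the B cell receptor, was 7.21 to 8.25 (median 7.84) in the lines and 7.38 to 7.99 (median 7.71) in wild-type spleens, and the ranges overlapped.

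Between lines and wild-type spleens, 5560 genes were higher in the lines (40.4% of genes tested) and 4244 were lower (30.8%), at an adjusted p under 0.05 by limma with Benjamini-Hochberg adjustment over all genes. Knockout spleens stood much closer to wild-type spleens, with 226 genes higher (1.64%) and 295 lower (2.14%), together 3.78%, while lines and knockout spleens differed in 70.4% of genes, with 41.6% higher and 28.8% lower in the lines. The comparison of the spleens had a term for sex, and because all knockout spleens were from females its difference equals the knockout mean minus the mean of the 3 female wild-type spleens. A gene was called stepwise where all 3 comparisons were called in the same direction. There were 71 stepwise genes that rose (0.516%) and 145 that fell (1.05%), and in 33 and 33 of them the groups were in order without overlap, as in 0.596% (rising) and 0.436% (falling) of all genes. Knockout and wild-type spleens alone did not overlap in 52 and 46 of them, and in 4.35% of all genes. A gene was called opposite where knockout spleen and lines had both moved from wild-type spleen but in different directions. In 74 opposite genes knockout spleens were higher and lines lower (0.538%), and in 30 knockout spleens were lower and lines higher (0.218%). Both comparisons subtract wild-type spleens, so an error in those spleens enters both. With the lines set against the 4 males and the knockout spleens against the 3 females, which leaves no shared wild-type spleen, 47 and 93 genes were stepwise, and 53 and 12 opposite. Of the genes first called, 44 of 71 and 77 of 145 stayed stepwise, and 45 of 74 and 8 of 30 stayed opposite. The comparison of lines with knockout spleens, which the stepwise class also needs, was left as it was.

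The remaining classes hold most genes. In 30 genes that rose (0.218%) and 54 that fell (0.392%), knockout spleens and lines had moved the same way from wild-type spleens. The lines were not called as moved beyond the knockout spleens, and these genes are termed here not separated from the lines. The class also admits genes in which knockout spleens went past the lines. For lines-only genes, the lines differed from both groups of spleens, knockout and wild-type spleens were not called different, and the 95% interval of their difference lay within 0.5 log2 units of 0. There were 3277 such genes higher in the lines (23.8%) and 994 lower (7.22%). In a further 1834 genes that rose and 2510 that fell the knockout change was too imprecise to bound. The counts that need a knockout call moved with single spleens. They fell to 20 and 24 stepwise genes and 24 and 2 opposite genes without wild-type spleen 6, a female, and rose to 120 and 195 stepwise and 108 and 52 opposite genes without knockout spleen 6.

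How far knockout spleen had moved was described by its position, the difference of knockout and wild-type means divided by the difference of line and wild-type means, where 0 is the mean of all 7 wild-type spleens and 1 the line level. By the way the classes are defined, positions ran from 0.05 to 0.67 (median 0.34) in stepwise genes that rose and from -0.0012 to 0.70 (median 0.15) in those that fell. In genes not separated from the lines they ran from 0.38 to 2.51 (median 0.88) and from 0.12 to 2.52 (median 0.84), so most knockout means were short of the line mean. Among the 2645 genes called at least 2-fold higher in the lines, the median position was 0.0901 (quartiles 0.0027 and 0.193), and 75.5% of these genes had a knockout mean between the other 2. Of the 2873 genes at least 2-fold lower, the median position was 0.0228 (quartiles -0.0695 and 0.110), and 58.5% lay between. Positions over 0.25 and under 1 were held by 15.7% of the rising and 9.26% of the falling genes. Most genes that marked the lines were near the wild-type level in knockout spleen. The 100 genes with the largest rise in the lines, chosen without the knockout arrays, had a median log2 difference of 6.07 in the lines and 0.17 in knockout spleens (quartiles -0.20 and 0.50). Of these 100, 7 were stepwise and 1 was opposite.

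**Figure D1:**
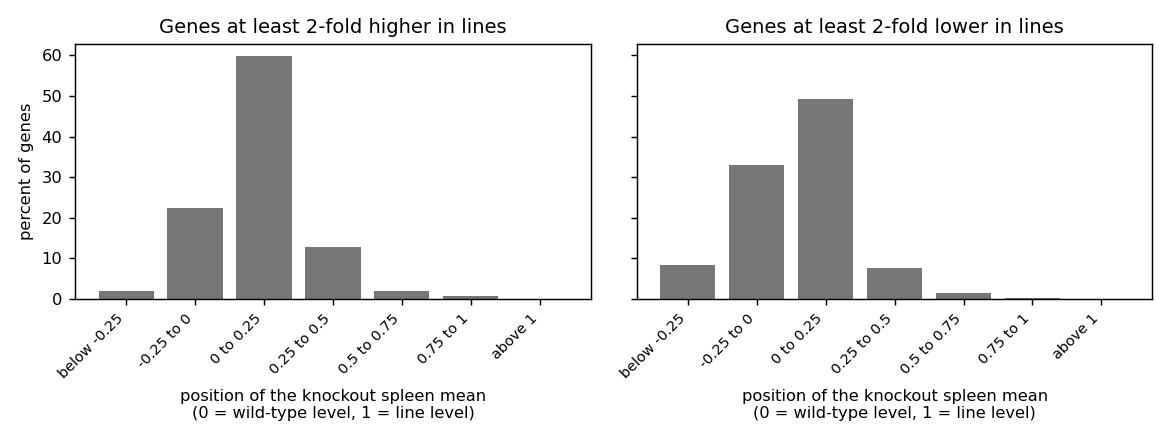
Position of the knockout spleen mean on the path from wild-type spleen (0) to lymphoma line (1), as the percent of genes in each range of positions, for genes called at least 2-fold higher (left, 2645 genes) or lower (right, 2873 genes) in the lines. Bars are tallest between 0 and 0.25 in both panels, at 49.3% of the falling genes, and few genes lie beyond 0.5.

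Several of the stepwise genes that rose code for proteins known to restrain signalling. Dusp14, a dual-specificity phosphatase that restrains MAP kinase and antigen receptor signalling, was -6.55 to -4.68 (median -5.40) in wild-type spleens, -3.06 to -2.21 (median -2.60) in knockout spleens and 1.34 to 1.94 (median 1.70) in the lines. No knockout spleen overlapped a wild-type spleen or a line. Knockout spleens were higher than wild-type spleens by 2.63 ± 0.33 (SE, limma adjusted p = 0.00204) on the log2 scale, a 6.19-fold difference, and the lines by 7.12 ± 0.20 (SE, adjusted p = 4.9e-18). Dusp14 was dim in wild-type spleens, and with normexp background correction the differences were 1.01 and 4.76, both still called. A second probe for the gene had the same signs. Dusp10, a phosphatase of the stress kinases JNK and p38, followed the same order at higher levels. It was -0.29 to 0.63 (median 0.37) in wild-type spleens, 0.95 to 1.99 (median 1.69) in knockout spleens and 2.37 to 3.42 (median 2.92) in the lines, and the knockout difference was 1.15 ± 0.22 (SE, limma adjusted p = 0.0158). Its knockout mean stood at 0.52 of the path, against 0.40 for Dusp14.

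Ctla4, an inhibitory receptor best known from T cells that binds the costimulatory ligands CD80 and CD86, was -6.07 to -4.27 (median -4.85) in wild-type spleens, -3.0 to -2.22 (median -2.53) in knockout spleens and -1.17 to 1.42 (median 0.15) in the lines. All 6 knockout spleens lay above all wild-type spleens and below all lines, with a knockout difference of 2.37 ± 0.31 (SE, limma adjusted p = 0.00259) and a line difference of 5.18 ± 0.30 (SE, adjusted p = 1.14e-12). With normexp these were 0.96 and 3.30, both still called. The summed level of 25 T cell markers did not follow this order, being 32.1 to 40.7 in the wild-type group, 28.3 to 39.6 in the knockout group and 16.1 to 54.5 among the lines. Ctla4 is itself on that list, and the part of T cells in its level was not tested. Il10, a cytokine that dampens inflammation and is made by activated B cells among others, was -2.50 to -1.18 (median -1.82) in wild-type spleens, -0.55 to 0.20 (median -0.03) in knockout spleens and 0.86 to 4.48 (median 2.74) in the lines. It rose by 1.30 ± 0.19 in knockout spleens (adjusted p = 0.00515) and by 4.64 ± 0.36 in the lines, again without overlap.

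Further stepwise genes that rose have roles in transcription and growth. Foxo6, a forkhead transcription factor, was -6.66 to -4.94 (median -5.15) in wild-type spleens, -3.50 to -2.71 (median -3.11) in knockout spleens and -1.82 to 1.80 (median -0.60) in the lines, and Mlf1, a gene first found in a fusion of myeloid leukaemia, was -6.53 to -4.47 (median -5.31) in wild-type spleens, -3.56 to -2.87 (median -3.32) in knockout spleens and -0.18 to 0.99 (median 0.54) in the lines. Both were in order without overlap, with knockout differences of 2.20 ± 0.32 and 1.47 ± 0.24. With normexp these were 0.70 and 0.51, both still called, and with no sex term that of Mlf1 was 2.14. Eaf2, a partner of the ELL elongation factors that is high in germinal centre B cells, was 1.60 to 1.95 (median 1.72) in wild-type spleens, 2.41 to 2.92 (median 2.74) in knockout spleens and 4.86 to 6.18 (median 5.14) in the lines. Its spleens formed narrow ranges that did not meet, and the lines stood far above both. Odc1, which makes polyamines for growing cells, was among the brightest, at 5.55 to 5.89 (median 5.70) in wild-type spleens, 6.27 to 6.74 (median 6.53) in knockout spleens and 7.31 to 7.80 (median 7.66) in the lines. It rose by 0.75 ± 0.11 in knockout spleens and 1.91 ± 0.09 in the lines.

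Others are known from stress and DNA damage responses. Gadd45a, a p53 target that slows the cell cycle, was 1.34 to 2.24 (median 1.90) in wild-type spleens, 2.54 to 3.15 (median 2.77) in knockout spleens and 3.04 to 4.22 (median 3.59) in the lines, where the lowest line stood between the knockout spleens. Its knockout difference was 0.98 ± 0.19 (SE, limma adjusted p = 0.0168), with a position of 0.53. Gadd45b, a sister gene induced by NF-kB, rose by 0.88 ± 0.10 in knockout spleens and 1.42 ± 0.22 in the lines. Tnfrsf10b, the mouse TRAIL death receptor, rose by 0.85 ± 0.16 and 3.16 ± 0.17, the first of which was 0.17 and not called with normexp background correction. Chac1, which breaks down glutathione during amino acid and endoplasmic reticulum stress, rose by 1.74 ± 0.32 and 4.78 ± 0.43. Nbn, a subunit of the MRN complex that senses breaks beside ATM, rose by 0.39 ± 0.09 in knockout spleens and 1.23 ± 0.09 in the lines, with no overlap between the groups. The knockout call was lost with slide as a block for Gadd45a and Chac1, with no sex term for Gadd45b and Chac1, and with median centring and female spleens only for Nbn. Of 32 measured p53 targets, 3 were called higher and 1 lower in knockout spleens, beside 1.64% and 2.14% of all genes, and 22 were higher and 7 lower in the lines, beside 40.4% and 30.8%. Of 30 DNA break response genes, 2 were higher and 2 lower in knockout spleens.

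Other genes with a clear order were Gnb3, a G protein subunit (1.54 ± 0.34 in knockout spleens), Pon3, a paraoxonase (1.18 ± 0.18), Dtl, which marks the replication factor CDT1 for degradation (1.29 ± 0.30), and the dim H2-Q1 and Irak1bp1 (1.88 ± 0.30 and 1.69 ± 0.41). H2-Q1 is a class I gene with close copies, so its probe may read others. With normexp the knockout differences of H2-Q1, Irak1bp1 and Gnb3 were 0.08, 0.01 and 0.59 and none was called. The calls of Pon3, H2-Q1 and Gnb3 were lost with no sex term, and those of Dtl, Irak1bp1 and Gnb3 with slide as a block. Among the genes, 10 of the 71 kept their class under each of 7 other settings (median centring, quantile normalisation, normexp, the deposited value table, slide as a block, no sex term, female spleens only). The 10 were Dusp14, Ctla4, Foxo6, Mlf1, Il10, Dusp10, Eaf2, Odc1, Usp2, a deubiquitinase, and Cacna1s, a calcium channel subunit. Odc1, Usp2 and Cacna1s were named for this reason, after their values were seen. Usp2 was -5.29 to -3.72 (median -4.78) in wild-type spleens, -2.76 to -1.72 (median -2.30) in knockout spleens and -2.97 to 1.53 (median 0.41) in the lines, so that the lowest line lay below the lowest knockout spleen. Cacna1s was 1.03 to 1.45 (median 1.37) in wild-type spleens, 1.87 to 2.60 (median 2.23) in knockout spleens and 4.91 to 6.62 (median 5.70) in the lines, without overlap.

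**Figure D2:**
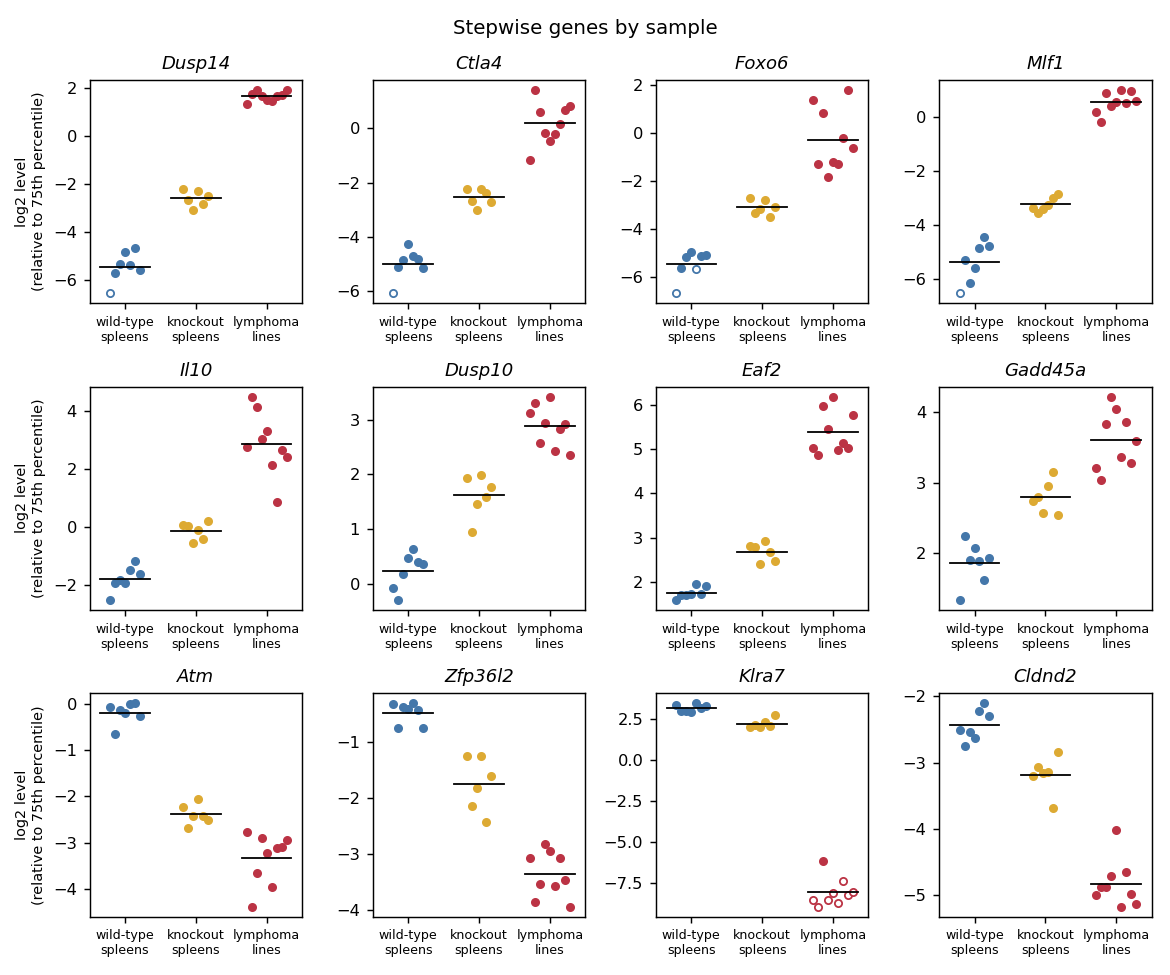
Log2 level relative to the 75th percentile in each of 7 wild-type spleens, 6 knockout spleens and 9 lines for 8 stepwise genes that rose and 4 that fell (bottom row). Each point is 1 sample, open where the probe was not well above background, and the black line is the group mean. In each panel the knockout spleens lie between the other groups by their mean, and for Gadd45a they share their range with the lowest lines.

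The bases before the start site are shown for stepwise genes whose promoters hold a cyclic AMP response element, which were picked after the values were seen. RefSeq promoters (GRCm38.p6, 250 bases before to 50 after the start) were matched for 56 of the 71 rising genes. The motif TGACGTCA, searched on both strands and identical on both, was present in 7 of these 56 genes, or 12.5%, and in 369 of 11033 tested genes with a promoter, or 3.35%. The 7 were Chgb, Dtl, Ell2, Kif18a, Mlf1, Spag4 and Spata7. The shares were 2.04% of 98 stepwise genes that fell, 6.90% of 58 opposite genes that were lower in lines, 4.55% of 22 opposite genes that were higher and 4.33% of 2701 lines-only genes that were higher. The NF-kB motif (GGGA and TTCC with 2 bases of any kind between them) was in 0 of 56 stepwise genes that rose and in 1.80% of all genes. The E2F motifs TTTCCCGC and TTTGGCGC, also searched on both strands, were in 3 of the 56, or 5.36%, against 3.15%, and the interferon motif (GAAA, any 2 bases, GAAA) was in 0 against 3.69%. The shares are descriptions without a test, and a motif missing from a window says only that these letters are not in it. The lines that follow give the 250 bases before the start site, 5′ to 3′ on the strand of the gene, with cyclic AMP, E2F and NF-kB motifs in capitals. Maff and Il6 are opposite genes, described further on.
Dtl, chr1:191575545-191575794, minus strand: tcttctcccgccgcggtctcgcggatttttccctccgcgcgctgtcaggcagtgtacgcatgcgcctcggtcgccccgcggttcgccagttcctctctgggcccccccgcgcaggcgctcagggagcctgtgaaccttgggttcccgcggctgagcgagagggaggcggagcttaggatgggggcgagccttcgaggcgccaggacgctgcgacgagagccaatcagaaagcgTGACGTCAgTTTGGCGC
Mlf1, chr3:67373847-67374096, plus strand: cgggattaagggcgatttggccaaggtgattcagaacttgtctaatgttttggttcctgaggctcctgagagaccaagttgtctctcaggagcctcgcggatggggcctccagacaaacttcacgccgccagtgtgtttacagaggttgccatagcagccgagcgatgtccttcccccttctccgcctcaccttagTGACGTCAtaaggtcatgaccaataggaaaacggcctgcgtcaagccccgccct
Chgb, chr2:132781392-132781641, plus strand: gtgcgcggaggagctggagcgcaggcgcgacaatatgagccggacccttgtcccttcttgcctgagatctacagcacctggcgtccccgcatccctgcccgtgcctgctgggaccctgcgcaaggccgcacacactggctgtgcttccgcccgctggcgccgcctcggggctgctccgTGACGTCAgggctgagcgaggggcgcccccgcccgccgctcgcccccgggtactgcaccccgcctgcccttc
Spag4, chr2:156064963-156065212, plus strand: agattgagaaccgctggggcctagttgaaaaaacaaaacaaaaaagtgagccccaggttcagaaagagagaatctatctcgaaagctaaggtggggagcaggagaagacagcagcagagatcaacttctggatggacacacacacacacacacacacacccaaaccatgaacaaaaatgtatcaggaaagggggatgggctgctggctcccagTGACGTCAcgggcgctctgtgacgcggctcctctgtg
Maff, chr15:79347270-79347519, plus strand: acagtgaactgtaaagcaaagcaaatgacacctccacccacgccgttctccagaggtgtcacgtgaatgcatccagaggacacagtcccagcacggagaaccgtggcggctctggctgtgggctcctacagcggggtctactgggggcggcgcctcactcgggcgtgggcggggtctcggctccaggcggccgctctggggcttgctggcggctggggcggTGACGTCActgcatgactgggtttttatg
Il6, chr5:30012864-30013113, plus strand: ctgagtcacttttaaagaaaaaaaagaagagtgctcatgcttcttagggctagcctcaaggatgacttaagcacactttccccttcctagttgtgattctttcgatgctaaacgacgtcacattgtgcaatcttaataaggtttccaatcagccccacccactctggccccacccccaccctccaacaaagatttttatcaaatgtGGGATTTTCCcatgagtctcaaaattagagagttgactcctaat
In Dtl the cyclic AMP motif and an E2F motif lie side by side just before the start, in Mlf1, Maff, Chgb and Spag4 the cyclic AMP motif stands alone, and in Il6 the capitals mark the NF-kB motif. Maff has 2 further start sites in RefSeq, whose windows hold none of these motifs. Of the 58 opposite genes that were lower in lines, Il6 was the only 1 with the NF-kB motif, or 1.72%. Chgb, a granin of secretory vesicles, was -8.52 to -7.23 (median -8.06) in wild-type spleens, -7.33 to -6.29 (median -6.74) in knockout spleens and -5.78 to -4.28 (median -5.0) in the lines. The lowest knockout spleen overlapped the highest wild-type spleen, and the probe was well above background in no wild-type spleen and in 2 of 6 knockout spleens. Spag4, a nuclear envelope protein, rose by 0.72 ± 0.16 in knockout spleens and 1.57 ± 0.25 in the lines. Chgb and Spag4 were not stepwise with normexp, with slide as a block or with female spleens only.

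Of 23 measured NK cell genes, 11 were among the 145 stepwise genes that fell. All 23 were lower in the lines, 11 were called lower in knockout spleens, against 2.14% of all genes, and these 11 were all stepwise. The median difference of the 23 was -0.76 in knockout spleens and -8.47 in the lines, beside -0.05 and 0.14 for all tested genes. The list summed to between 235 and 328 in wild-type spleens, between 181 and 265 in knockout spleens and between 0.501 and 3.05 in the lines, so the spleen groups overlapped in their sum. In the lines, 9 of the 23 genes were not well above background in any culture. With those 9 set to the bound their background allows, the median in the lines was -7.24. The filter asked for a level well above background in 6 samples, so spleens alone could bring a gene into the test. With 15 of the 22 samples asked for, 8 of the 23 were tested. Of these, 3 were called lower in knockout spleens, and all 3 were stepwise.

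Within that group, Klra7, an inhibitory Ly49 receptor of NK cells, was 2.89 to 3.43 (median 3.17) in wild-type spleens, 1.98 to 2.71 (median 2.07) in knockout spleens and -8.90 to -6.14 (median -8.18) in the lines, with no overlap and a knockout difference of -1.09 ± 0.16 (SE, limma adjusted p = 0.00515). Klrb1c, the NK1.1 antigen, was 2.08 to 2.77 (median 2.37) in wild-type spleens, 0.98 to 2.18 (median 1.32) in knockout spleens and -3.97 to 1.32 (median -2.08) in the lines. Knockout and wild-type spleens shared a small part of their range, and the highest line lay within the range of the knockout spleens. Klrb1c fell by 1.29 on the log2 scale in knockout spleens, and unlike most of the list it was well above background in all 9 lines. Klra8, Klra3, Klra9 and Klra10, other Ly49 genes, fell in knockout spleens by 1.49, 1.15, 1.29 and 1.37. Klra9 and Klra10 are not on the NK cell list and are not counted in it. The Klra genes are near-identical copies, so a probe may read more than 1 of them. Gzma, a granzyme of killer cells, was 4.22 to 4.71 (median 4.61) in wild-type spleens, 3.79 to 4.37 (median 4.04) in knockout spleens and -8.80 to -4.36 (median -8.02) in the lines, a smaller step with overlap of the spleens, while Gzmb was 1.58 to 2.36 (median 1.99) in wild-type and 1.68 to 2.33 (median 2.03) in knockout spleens and belonged to the lines-only genes. Styk1, a kinase-like receptor also found in NK cells but not on the list, fell by 1.07. Of these falling genes, Klra3, Klra8, Klra9, Klra10 and Styk1 were not called with slide as a block or with female spleens only, and Klra3, Klra7, Klra9, Klra10 and Klrb1c not with no sex term. Gzma was not stepwise with slide as a block or with no sex term. With normexp the line difference of Klra7 was -6.61 in place of -11.19, and those of the other Ly49 genes also shrank by over 4 units. The count of 11 became 2 without a sex term, 5 with slide as a block, 2 without wild-type spleen 6, 3 without wild-type spleen 7, 4 without wild-type spleen 5 and 17 without knockout spleen 6, while 20 to 22 members had the lower mean in knockout spleens under every one of these. In the main setting 22 of the 23 had the lower mean, beside 8049 of all 13765 tested genes.

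Not all falling genes were NK cell genes. Atm fell by 2.30 in knockout spleens and 3.14 in the lines on the log2 scale, and a second probe had the same signs. The sources used here do not say which part of Atm was deleted. Zfp36l2, which binds AU-rich messages and promotes their decay, was -0.74 to -0.30 (median -0.40) in wild-type spleens, -2.43 to -1.24 (median -1.71) in knockout spleens and -3.94 to -2.82 (median -3.46) in the lines, with no overlap. Its difference was -1.26 ± 0.24 (SE, limma adjusted p = 0.0168) in knockout spleens and -2.90 ± 0.19 (SE, adjusted p = 7.25e-12) in the lines. Cldnd2, a claudin-domain protein, was -2.75 to -2.11 (median -2.52) in wild-type spleens, -3.68 to -2.84 (median -3.15) in knockout spleens and -5.17 to -4.02 (median -4.87) in the lines, and it alone of the 145 kept its class under each of the 7 other settings. Il16, a lymphocyte chemoattractant, fell by 0.52 in knockout spleens and 1.18 in the lines. Dusp2, a MAP kinase phosphatase, fell by 0.74 and 1.24, the reverse of Dusp14 and Dusp10. Stxbp6, a regulator of vesicle fusion, the protease gene Htra1, Fabp1, which binds fatty acids, and the potassium channel gene Kcnj8 fell by 1.31, 1.05, 1.0 and 0.92 in knockout spleens and were at background in at least 8 of 9 lines. Of these genes, the knockout calls of Zfp36l2, Il16, Dusp2, Stxbp6, Htra1, Fabp1 and Kcnj8 were lost with slide as a block, those of Htra1, Fabp1 and Kcnj8 also with no sex term, and that of Il16 also with median centring. From the bound that background sets, the lines were at least 27.5-fold lower than wild-type spleens for Htra1.

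Some of the falling genes were also called by sex. Of the 145, 34 were also called between male and female wild-type spleens, where 94 of all tested genes were, and of the 71 rising genes 1 was. Both differences are measured from the same 3 female wild-type spleens. A high level in those 3 enters both calls, so the overlap is a description and does not show an effect of sex. Sparc, a matrix protein of stroma, was -4.16 to -3.06 in the 4 male and -1.70 to -1.41 in the 3 female wild-type spleens, and -3.54 to -2.10 (median -3.02) in knockout spleens. The knockout spleens were below the females and beside the males. Stab1, a scavenger receptor of sinus endothelium, had the same form, at -4.53 to -3.75 in males, -2.42 to -2.29 in females and -3.98 to -2.99 (median -3.52) in knockout spleens. Col4a1, a basement membrane collagen, was -5.08 to -4.27 in males, -3.66 to -3.23 in females and -4.70 to -3.90 (median -4.45) in knockout spleens. Against all 7 wild-type spleens the knockout ranges of all 3 genes overlapped, and with no sex term their knockout differences were -0.21, -0.12 and -0.22, none of them called, and the stepwise genes that fell numbered 40. The fall of Col4a1 in the lines was itself not called with median centring, quantile normalisation, normexp or no shared spleen. The part of sex in these falls was not tested.

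Of the 104 opposite genes, most were higher in knockout spleens and lower in the lines, and they included cytokines and rapidly induced genes. Il6, a cytokine of inflammation and an NF-kB target, was -2.81 to -1.44 (median -2.17) in wild-type spleens, -1.24 to -0.18 (median -0.52) in knockout spleens and -8.44 to -5.79 (median -7.90) in the lines. Knockout and wild-type spleens did not overlap, and 1 of 9 lines was well above background. The knockout difference was 1.82 ± 0.30 (SE, limma adjusted p = 0.0073), or 3.53-fold. Il22, a cytokine of innate lymphoid cells, was -4.0 to -2.93 (median -3.51) in wild-type spleens, -2.33 to -0.78 (median -1.73) in knockout spleens and -9.02 to -5.92 (median -8.22) in the lines, and every line was at background. It rose by 1.89 ± 0.30 (SE, limma adjusted p = 0.00634) in knockout spleens. Tnfsf4, the OX40 ligand, rose by 1.76 ± 0.32 and was at background in all lines, at least 3.04-fold below wild-type spleens. Pde4d, which degrades cyclic AMP, was -4.70 to -3.71 (median -4.05) in wild-type spleens, -2.99 to -2.57 (median -2.83) in knockout spleens and -8.69 to -6.15 (median -8.11) in the lines, with a knockout difference of 1.58 ± 0.18. With normexp the knockout differences of Il22, Tnfsf4 and Pde4d were 1.21, 0.65 and 0.58, all still called, and the line differences of Il6, Il22, Tnfsf4 and Pde4d were -1.64, -1.0, -0.55 and -0.55. The call of Tnfsf4 was lost with slide as a block.

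Immediate early genes, whose transcripts appear within minutes of a signal, made up the largest set of the lists in this class. Of 25 measured, 22 were lower in the lines, while 11 were higher and 1 was lower in knockout spleens, against 1.64% and 2.14% of all genes. The 11 were all opposite, namely Atf3, Btg2, Egr2, Fos, Fosb, Fosl2, Jun, Klf4, Klf6, Nr4a2 and Nr4a3. The median of the 25 was 0.47 in knockout spleens and -2.83 in the lines, beside -0.05 and 0.14 for all tested genes. Knockout means were higher in 20 of the 25, beside 5716 of all 13765 tested genes. Dusp2 was the member that fell in both.

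Fosb, an AP-1 subunit, was 2.38 to 3.08 (median 2.73) in wild-type spleens, 3.65 to 4.14 (median 3.91) in knockout spleens and -1.70 to 1.1 (median -0.85) in the lines. The 3 groups did not overlap, with knockout spleens on top and lines at the bottom. Its knockout difference was 1.12 ± 0.16 (SE, limma adjusted p = 0.00393) and its line difference -3.36 ± 0.32 (SE, adjusted p = 4.5e-09). Klf4, a zinc finger factor that holds lymphocytes in quiescence, was 5.45 to 5.82 (median 5.57) in wild-type spleens, 6.12 to 6.64 (median 6.46) in knockout spleens and -1.76 to 1.93 (median 0.09) in the lines. Atf3, a stress-induced factor, was 3.96 to 4.67 (median 4.33) in wild-type spleens, 5.05 to 5.56 (median 5.41) in knockout spleens and -2.20 to 1.31 (median -0.05) in the lines, with the same order. Nr4a2, an orphan nuclear receptor, rose by 1.07 ± 0.15 in knockout spleens and fell by 4.92 in the lines. Jun, another AP-1 subunit, rose by 0.84 ± 0.18 and fell by 2.51. For Nr4a3, 3 of 9 lines were well above background and the line difference of -0.82 became 0.01 with normexp. It was also not called with median centring, quantile normalisation, the repeat array left out or no shared spleen. Maff, a small Maf factor that pairs with AP-1 and NRF proteins, was 0.95 to 1.77 (median 1.45) in wild-type spleens, 2.66 to 3.38 (median 2.82) in knockout spleens and -1.84 to 0.12 (median -0.68) in the lines, without overlap, and rose by 1.21 ± 0.15 (SE, limma adjusted p = 0.00221) in knockout spleens. Myc, also a rapidly induced gene, was 4.31 to 5.01 (median 4.70) in wild-type spleens, 5.09 to 5.78 (median 5.27) in knockout spleens and 2.14 to 3.53 (median 2.59) in the lines, and its knockout difference of 0.62 ± 0.18 (SE, limma adjusted p = 0.0756) missed the threshold. Fosb and Atf3 were not called in knockout spleens with no sex term, and Klf4, Nr4a2 and Jun were then not opposite. With slide as a block, 9 of the 25 were opposite, with no sex term 3, with median centring 6, and without any 1 of the 3 female wild-type spleens 5. The median knockout difference of the list under these settings and all others run was 0.46 to 0.59.

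**Figure D3:**
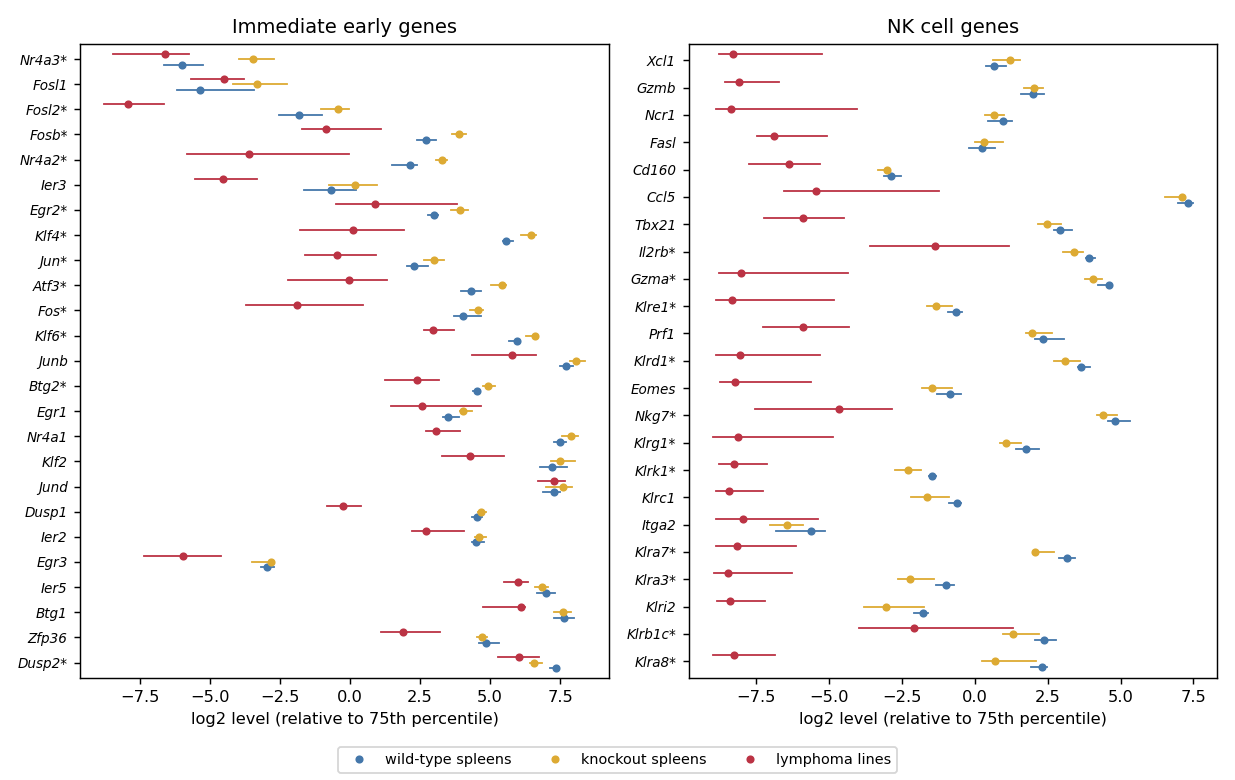
Log2 level relative to the 75th percentile of 25 immediate early genes (left) and 23 NK cell genes (right), sorted by the knockout minus wild-type difference. Points are medians and bars run from the lowest to the highest sample of 7 wild-type spleens, 6 knockout spleens and 9 lines, and an asterisk marks stepwise and opposite genes. Knockout spleens lie to the right of wild-type spleens for most immediate early genes and to their left for most NK cell genes, while the lines lie to the left for nearly all of both.

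Of 46 measured NF-kB targets, 14 were higher and 25 lower in the lines, beside 40.4% and 30.8% of all genes. In knockout spleens 6 were higher, beside 1.64%, and the median difference was 0.13, beside -0.05. Il10 and Gadd45b were stepwise, and Il6, Cd69 and Tnfaip3 were opposite. Tnfaip3, the ubiquitin-editing brake A20 that NF-kB induces, was 3.99 to 4.46 (median 4.34) in wild-type spleens, 4.62 to 5.16 (median 5.06) in knockout spleens and 0.90 to 3.07 (median 1.95) in the lines, and Cd69, an activation marker of lymphocytes, was 3.67 to 4.32 (median 4.04) in wild-type spleens, 4.33 to 5.13 (median 4.78) in knockout spleens and -0.16 to 2.59 (median 1.16) in the lines. In both genes the knockout spleens stood above the wild-type spleens and the lines below. Their knockout differences were 0.54 ± 0.14 and 0.75 ± 0.18, both of which missed the threshold with median centring, with no sex term and with female spleens only. Nfkbia, the inhibitor IkB alpha, was lines-only, at 6.30 to 6.68 (median 6.46) in wild-type spleens, 6.36 to 6.72 (median 6.64) in knockout spleens and 4.53 to 5.80 (median 4.98) in the lines.

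The opposite genes with the reverse form, lower in knockout spleens and higher in the lines, took small steps. Hes5, a target of Notch signalling, was 0.93 to 1.41 (median 1.19) in wild-type spleens, -0.08 to 0.76 (median 0.56) in knockout spleens and 2.61 to 5.66 (median 3.55) in the lines. No group overlapped another, and the knockout difference was -0.73 ± 0.17 (SE, limma adjusted p = 0.0327). Nars, which charges tRNA with asparagine, fell by 0.45 in knockout spleens and rose by 2.69 ± 0.27 in the lines. Bbs10, a chaperonin-like protein of cilia, Commd5 and the ubiquitin ligase gene Rnf170 differed by -0.43, -0.39 and -0.38 in knockout spleens, and each missed the threshold with median centring, slide as a block, no sex term and female spleens only. Hes5 missed it with these settings other than median centring, and Nars with no sex term. Dlat, a subunit of pyruvate dehydrogenase, is added outside the naming rule because it alone of the 30 kept its class under all 7 other settings. As with Klf4, Jun, Nr4a2, Gzma, Sdc1, Chgb and Spag4, it is named after its values were seen. It was 0.35 to 0.74 (median 0.39) in wild-type spleens, -0.27 to 0.00 (median -0.09) in knockout spleens and 0.64 to 1.39 (median 0.89) in the lines, with knockout spleens below all others. With median centring 29 genes had this form, of which 7 were among the 30. Of the 30, 2 lie near Atm on its chromosome, in the block described further on. The part of strain sequence around Atm in the Dlat difference was not tested, so its steadiness across settings does not tell a strain difference from an effect of the knockout.

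In genes not separated from the lines, knockout spleens and lines had moved the same way, and the lines were not called as moved beyond the knockout spleens. Mpzl2, a junctional adhesion protein, was -4.85 to -3.79 (median -4.60) in wild-type spleens, -2.88 to -2.19 (median -2.36) in knockout spleens and -4.62 to -1.30 (median -2.04) in the lines. Line 3 stood among the wild-type spleens and the other 8 lines above them, and the knockout difference was 2.15 ± 0.22 (SE, limma adjusted p = 0.0011), or 1.0 with normexp, still called. Fkbp5, a co-chaperone induced by glucocorticoids, was -0.15 to 1.0 (median 0.80) in wild-type spleens, -1.94 to -0.70 (median -1.69) in knockout spleens and -2.21 to -1.20 (median -1.67) in the lines. Knockout spleens and lines shared a range, and both stood below all wild-type spleens, with differences of -2.06 ± 0.30 (SE, limma adjusted p = 0.00449) for knockout spleens and -2.24 ± 0.19 (SE, adjusted p = 1.03e-09) for the lines. Their difference from each other was -0.08 ± 0.20 (SE, adjusted p = 0.727). With the median over its probes the differences of Fkbp5 from wild-type spleens were -1.27 and -1.40, both still called. Lmna, the nuclear lamin A, and Rgcc, a cell cycle regulator induced by complement, rose by 1.62 ± 0.24 and 1.77 ± 0.22 in knockout spleens. Rgcc stood at 1.23 of the path, past the line mean. Baiap2l1 rose by 2.24 ± 0.28, and by 0.43 with normexp, where it was not called. Bco2, Pla2g5, Synm and Tsnaxip1 were near background in the lines, so that a low line level is only an upper limit there. With normexp none of these 4 was called lower in the lines, and Synm and Tsnaxip1 were not called in knockout spleens either. Gla, Impact, Mpzl2, Rgcc and Rilpl2 of the rising genes and Fkbp5 of the falling genes kept their class under all 7 other settings.

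**Figure D4:**
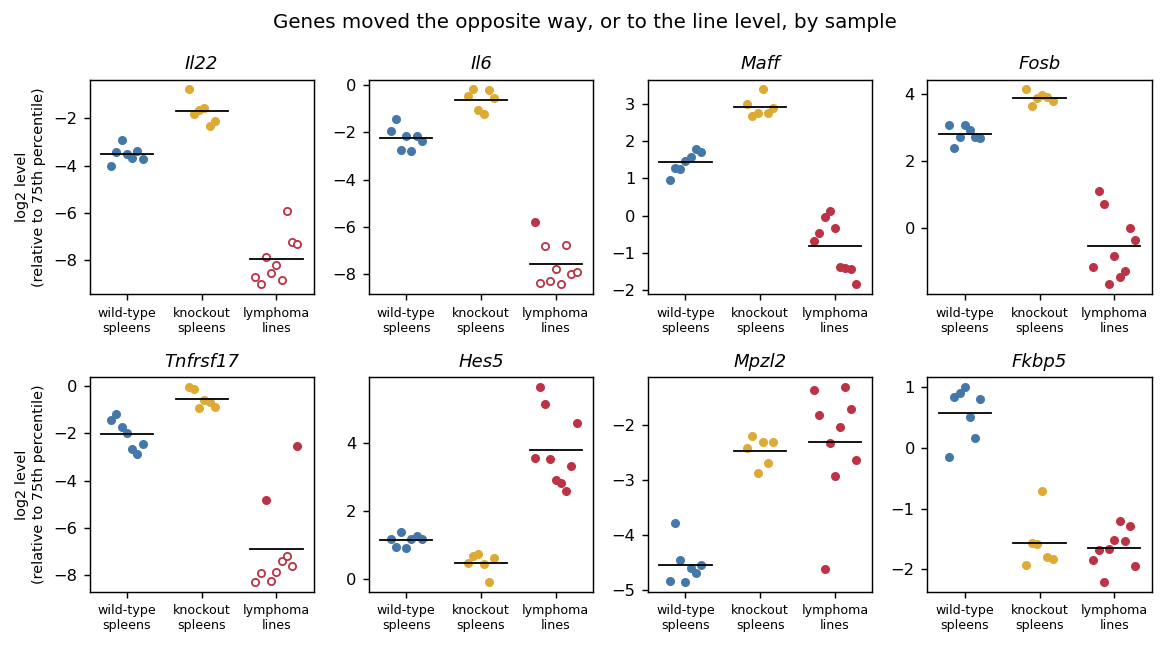
Log2 level relative to the 75th percentile in each of 7 wild-type spleens, 6 knockout spleens and 9 lines for 6 opposite genes and for Mpzl2 and Fkbp5, in which knockout spleens and lines were not called different. Each point is 1 sample, open where the probe was not well above background, and the black line is the group mean. Knockout spleens are the highest group for Il22, Il6, Maff, Fosb and Tnfrsf17 and the lowest for Hes5.

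Genes near Atm on its chromosome were few in these classes but held a larger share of most of them than of all genes. Atm itself and the 50 measured genes to either side made 101 tested genes (0.734%). They made up 2 of the 71 stepwise genes that rose (2.82%) and 1 of the 145 that fell (0.690%), which was Atm itself. Of the opposite genes they were 2 of the 30 that were higher in lines (6.67%) and 1 of the 74 that were lower (1.35%), and of those not separated from the lines 1 of 30 that rose (3.33%) and 3 of 54 that fell (5.56%). Bco2, 22 measured genes away, was one of the last. The mice were of a mixed strain background, and the part of strain sequence around Atm was not tested.

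Genes of growth metabolism were among the lines-only genes. Of all tested genes, 40.4% were higher and 30.8% lower in the lines, 23.8% were lines-only and higher, and 3.78% were called in knockout spleens, so that few or no calls in a short list lie near the background there. All 24 measured cholesterol synthesis genes were higher in the lines, 16 of them lines-only and 0 called in knockout spleens by limma (2 higher and 2 lower at an unadjusted p under 0.05), with medians of 2.68 in the lines and -0.05 in knockout spleens. Of 20 glycolysis genes, 17 were higher in the lines and 12 lines-only (medians 2.25 and 0.07), and of 32 ribosome biogenesis genes 26 were higher and 20 lines-only (medians 0.76 and -0.0022). On the falling side, 30 of 33 interferon response genes and 12 of 14 MHC class II genes were lower in the lines. By limma 0 of either list were called in knockout spleens, and at an unadjusted p under 0.05 there were 6 interferon genes and 2 class II genes lower. Because this class is defined by a small knockout change, the members' knockout levels are a description. The share of all tested genes at an unadjusted p under 0.05 was not counted. Member counts at that threshold, here and further on, therefore have no background beside them and are only descriptions.

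Cd3g, the neighbour of Cd3e in the genome, was -4.89 to -4.34 (median -4.64) in wild-type spleens, -5.01 to -4.39 (median -4.56) in knockout spleens and -2.21 to 4.41 (median 3.51) in the lines. All lines stood above the spleens, over a range far wider than that of either group of spleens, and the line difference was 7.30 ± 0.74 (SE, adjusted p = 1.33e-08). Cd3e itself, which all these mice lack by label, was -4.63 to -3.96 (median -4.12) in wild-type spleens, -4.65 to -3.86 (median -4.19) in knockout spleens and -3.29 to -1.22 (median -2.47) in the lines, and the part deleted is not given in the sources used here. Etv1, an ETS transcription factor, was -4.78 to -3.86 (median -4.51) in wild-type spleens, -4.56 to -3.78 (median -4.27) in knockout spleens and 0.72 to 2.43 (median 1.60) in the lines, and Fah, the last enzyme of tyrosine breakdown, was -2.26 to -1.82 (median -2.01) in wild-type spleens, -2.06 to -1.48 (median -1.70) in knockout spleens and 2.44 to 3.71 (median 3.02) in the lines. In both the spleens shared a range. Bnip3, which drives removal of mitochondria under low oxygen, rose by 4.77 ± 0.22, Morn4 by 6.48 ± 0.38, the actin-binding protein gene Pfn2 by 5.28 ± 0.27 and Bcl6, the germinal centre repressor, by 1.63 ± 0.30. Cdkn2a, whose knockout change could not be bounded and which encodes the tumour suppressors p16 and p19, was at background in all 13 spleens and well above it in all 9 lines, at least 26.2-fold higher than in wild-type spleens. On the falling side, Hhex, a homeobox factor of early lymphoid development, was 3.03 to 3.56 (median 3.22) in wild-type spleens, 2.83 to 3.22 (median 3.0) in knockout spleens and -8.85 to -6.11 (median -7.95) in the lines. Clec10a, a lectin of dendritic cells and macrophages, was at background in all lines and at least 181-fold lower than in wild-type spleens.

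Some lists had a common direction in knockout spleens that few of their members reached on their own. All 39 measured cell cycle genes had a higher mean in knockout than in wild-type spleens, as did 5716 of all 13765 tested genes. Of the 39, 37 were higher in the lines, and the median position was 0.25. Their median knockout difference was 0.64, beside -0.05 for all genes. At an unadjusted limma p under 0.05, 15 members were higher and 0 lower, with no share of all genes counted at that threshold. Pcna, the replication clamp, was the only member called by limma. Its call was lost with median centring, quantile normalisation, the deposited value table, no filter on dim probes, slide as a block, no sex term, female spleens only and no shared spleen, while normexp called 3 members. Pcna was 4.81 to 5.23 (median 4.93) in wild-type spleens, 5.21 to 5.63 (median 5.39) in knockout spleens and 5.71 to 6.90 (median 6.12) in the lines, and its knockout difference was 0.45 ± 0.11 (SE, limma adjusted p = 0.0485). Mki67, the proliferation antigen, was 2.86 to 5.05 (median 3.77) in wild-type spleens, 3.70 to 5.47 (median 4.84) in knockout spleens and 5.77 to 7.24 (median 6.62) in the lines, with wide ranges in both spleen groups, and its knockout difference of 0.74 ± 0.46 (SE, limma adjusted p = 0.382) missed the threshold. The median of the list was 0.30 with slide as a block and 0.54 to 0.76 without single spleens. Of 27 B cell genes, 7 were higher and 14 lower in the lines, beside 40.4% and 30.8% of all genes, and by limma 0 were called in knockout spleens (0 higher and 4 lower at an unadjusted p under 0.05). All 24 erythroid genes and 20 of 22 neutrophil genes also had higher means in knockout spleens, with medians of 1.04 and 0.86. By limma 0 of either list were called (4 erythroid genes higher and 0 neutrophil genes at an unadjusted p under 0.05), while 21 and 20 were lower in the lines. The summed erythroid level was 395 to 1122 in wild-type and 294 to 1283 in knockout spleens, that of neutrophil genes 293 to 1359 and 321 to 1060, and the part of these cells in the cell cycle values was not tested.

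All 19 plasma cell genes had a higher mean in knockout spleens, beside 5716 of all 13765 tested genes. Of the 19, 5 were called higher, beside 1.64% of all genes. In the lines 10 were higher and 4 lower, the median position was 0.075, and 10 of the 19 knockout means lay between the other 2. The list summed to between 115 and 147 in wild-type spleens, between 163 and 224 in knockout spleens and between 410 and 862 in the lines, in order without overlap. Derl3, which helps clear misfolded proteins from the endoplasmic reticulum, was 0.41 to 0.91 (median 0.70) in wild-type spleens, 1.20 to 2.04 (median 1.42) in knockout spleens and 4.50 to 6.24 (median 5.06) in the lines, and Ell2, an elongation factor that favours secreted antibody, was -0.20 to 0.38 (median 0.15) in wild-type spleens, 0.37 to 0.91 (median 0.71) in knockout spleens and 0.80 to 2.55 (median 1.22) in the lines. Both were stepwise, with knockout differences of 0.82 ± 0.19 and 0.71 ± 0.14. Tnfrsf17, the survival receptor BCMA of plasma cells, was opposite instead, at -2.86 to -1.18 (median -1.98) in wild-type spleens, -0.92 to -0.04 (median -0.62) in knockout spleens and -8.30 to -2.55 (median -7.64) in the lines. It rose by 2.12 ± 0.23 (SE, limma adjusted p = 0.00114) in knockout spleens, and 2 of the 9 lines were well above background. Sdc1, the plasma cell antigen CD138, was lower in the lines too, by 3.02. The call of Derl3 was also lost with slide as a block and female spleens only. With no sex term 0 of the 19 were called in knockout spleens by limma (8 higher at an unadjusted p under 0.05), and without wild-type spleen 6 or 7 there were 2. All 19 means stayed higher in knockout spleens except without wild-type spleen 7, where 18 did.

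**Figure D5:**
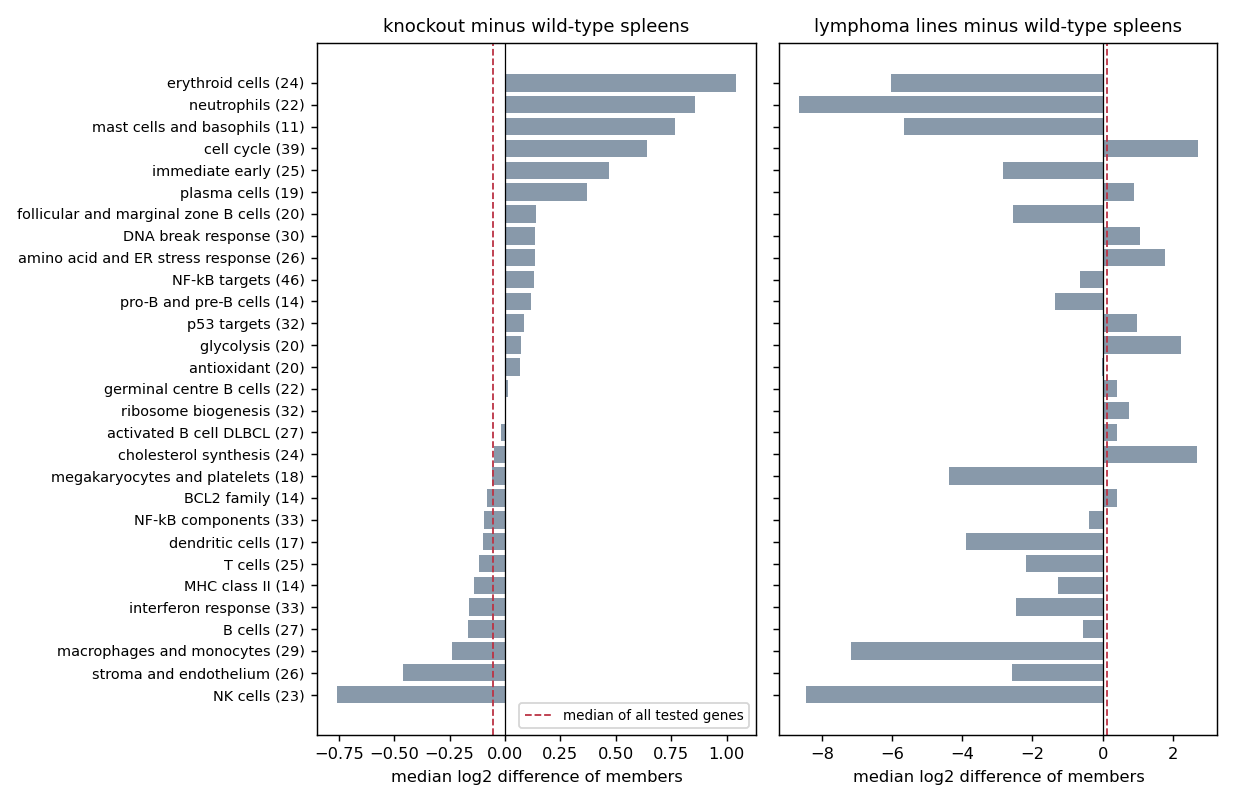
Median log2 difference of the tested members of 29 gene lists (number of members in brackets), for knockout minus wild-type spleens (left) and lines minus wild-type spleens (right), with the median of all tested genes as a dashed line (-0.05 and 0.14). Both panels subtract wild-type spleens. Cell cycle and plasma cell genes lie above the dashed line in both panels and NK cell genes below it, while immediate early, erythroid and neutrophil genes change sides.

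The classes were chosen on these arrays, so their values by slide are a description and support nothing. On the 5 slides with all 3 groups, 93.0% to 100% of the 71 rising stepwise genes had their means in the order wild-type, knockout, line. For the 145 falling genes the share was 96.6% to 98.6% on 3 slides and 75.9% and 69.7% on slides 3 and 6, whose only wild-type array was from a male. Of the 74 opposite genes that were lower in lines, 90.5% to 98.7% had opposite signs on each slide. Of the 30 that were higher in lines, 96.7% to 100% did on 3 slides, and 73.3% and 86.7% on slides 3 and 6. With slide as a block 35 rising and 53 falling genes were stepwise and 54 and 11 were opposite. At the edge of the threshold, Efhd1 was the stepwise gene with the highest adjusted p between spleens (0.0499, difference -1.58), and Prkch, with 0.0501 and -0.73, was just outside.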

How the data were processed

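Per the labels, total RNA of 22 samples was hybridised to 23 Agilent one-colour mouse arrays. The deposited scanner files hold Feature Extraction (version 10.7.1.1) output, per the file headers, and gProcessedSignal is an intensity that the scanner software had already corrected for background. The series' value table holds log2 values that the authors had deposited, which matched log2 processed signals centred per probe on the median of all arrays. It served as an alternative.

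Control spots were left out, as were outlier spots where the probe had others, spots of a probe were averaged, and log2 intensity minus the array's 75th percentile was analysed in R 4.3.3 with limma 3.58.1. Symbols came from RefSeq accessions (GRCm38.p6), which 26690 of 41174 probes matched. The probe with the highest mean stood for a gene, and 13765 of 18217 genes with a probe well above background in 6 samples were tested. Lines were compared with both spleen groups in 1 fit of 22 samples. Knockout and wild-type spleens were compared in 13 spleens with a term for sex. Tests are two-sided, with Benjamini-Hochberg adjustment over all tested genes and a threshold of 0.05. A level below background gives a bound ("at least N-fold"), set against the lowest signal well above background on each array.

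Alternatives were median centring, quantile normalisation, normexp with an offset of 50 on the median spot signal, the value table, other filters and probes, slide as a block, other handling of sex, wild-type spleens not shared, other thresholds, and each sample left out. Functions were tested on simulated data. The members and the 29 gene lists were chosen with earlier results of these data known, and 67 list members had no tested probe. Named genes were the 12 per direction with the largest smaller step among stepwise genes in order without overlap, 8 per direction of opposite and of lines-only genes that overlap no wild-type spleen or no spleen, 5 not separated from the lines, up to 3 stepwise and 3 opposite members per list, and a fixed set, with clone names passed over. The number of arrays limits the precision.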

Additional observations from a re-analysis of the deposited data

Results flagged for a closer look

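For 87 genes that the text could name, each group was searched for a single sample that stood apart from the rest by Dixon's 95% criterion. Chance flags about 1 in 20 groups, and 24 of 261 groups held such a sample.

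In wild-type spleens, the low sample was spleen 1 for Foxo6 (-6.66, next -5.67) and spleen 2 for Atm (-0.67, next -0.27). Spleen 2 was also the high sample for Mpzl2 (-3.79, next -4.46) and Mns1 (1.93, next 1.19).

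In knockout spleens, spleen 5 was high for Irak1bp1 (-5.41) and low for Hes5 (-0.08, next 0.45), spleen 3 was low for Nars (-0.23), and spleen 4 was high for Fkbp5 (-0.70, next -1.58). Spleen 6 was low for Rgcc (3.39) and high for Skap1 (1.29). In Fkbp5 the high knockout spleen was still below every wild-type spleen.

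Among the lines, line 7 stood above the others in 10 genes. Its values were -5.14 for Klra10, -5.38 for Klra9, -6.29 for Klra3, -6.32 for Htra1, -5.13 for Fabp1, -6.15 for Pde4d, -5.73 for Bco2, -5.12 for Synm, -3.97 for Skap1 and -3.08 for Esam. The lowest signal well above background on the array of line 7 was -5.26, against -6.78 to -5.83 on those of the other lines. Line 8 was high for Kcnj8 (-5.75) and line 5 for Cldnd2 (-4.02), while line 6 was low for Il16 (1.80). Line 3 was low for Mpzl2 (-4.62, next -2.92), at the level of wild-type spleens.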

How the results depend on the processing

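The counts between lines and spleens were steadier than those that need a knockout call. Median centring moved the median line difference of all genes from 0.14 to 0.71, gave 8286 higher and 2739 lower genes against wild-type spleens (75.2% higher, against 56.7%) and 2601 lower genes against knockout spleens. It left 162 genes lower in knockout spleens, 75 stepwise falling, 42 opposite (knockout higher), 380 lines-only lower and 19 falling not separated from the lines. Of the stepwise genes, 49 of 71 rising and 74 of 145 falling kept their class with it.

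With no filter on dim probes 45 genes were stepwise and rose and 14 were opposite (knockout lower), and the stricter filter left 88 stepwise falling genes. With slide as a block, knockout spleens had 146 higher and 108 lower genes, 35 and 53 stepwise, 11 opposite (knockout lower) and 20 falling not separated from the lines. With no sex term there were 126 and 118, 40 stepwise falling, 11 and 37 opposite and 17 rising not separated from the lines. With female spleens only there were 176 lower, 47 stepwise rising, 11 opposite (knockout lower) and 31 falling not separated from the lines. With no shared wild-type spleen there were 176 lower, 47 and 93 stepwise, 12 opposite (knockout lower) and 19 and 19 not separated from the lines.

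At an adjusted p of 0.01, 67 genes were higher and 52 lower in knockout spleens, 17 and 27 stepwise, 2 and 19 opposite and 11 and 8 not separated from the lines. With at least 2-fold between lines and wild-type spleens, 2645 were higher, 11 opposite (knockout lower), 1176 and 477 lines-only and 17 and 15 not separated from the lines. An interval limit of 0.25 left 460 and 49 lines-only genes, and a limit of 1 gave 2652 lower.

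Without single samples the counts ran from 5398 to 5577 and 4118 to 4282 for lines against wild-type spleens, 5458 to 5747 and 3782 to 4010 against knockout spleens, and 74 to 352 and 47 to 423 between spleens. Stepwise genes ran from 20 to 120 and 24 to 195, opposite from 24 to 108 (knockout higher) and 2 to 52, lines-only from 2580 to 3319 and 666 to 1082, and not separated from the lines from 9 to 53 and 9 to 77. Wild-type spleens 5, 6 and 7 moved each of the counts that need a knockout call by over 1.5 times, and knockout spleens 1, 2, 3, 4 and 6 moved some of them.

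The line minus wild-type differences of Irf4 (0.53) and Trp53 (0.47) turned higher in the lines with median centring, and that of Nr4a3 became 0.0063 with normexp. Each single-gene difference was recomputed under up to 12 settings. Of the values that gave, 2235 had the direction and side of the threshold of the main value, 210 lost the call and 8 gained one. No cause was tested. The labels give no replicate numbers, so the only block fitted was slide. Levels at background limit the falling genes in the lines, where folds are bounds.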

Other observations

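The lists of other cell types and programmes stood as follows, beside 40.4% of all genes higher and 30.8% lower in the lines, and 1.64% and 2.14% in knockout spleens. All but 1 of 29 macrophage and monocyte genes were lower in the lines (median -7.18), as were 15 of 17 dendritic cell genes (-3.91), 16 of 18 megakaryocyte and platelet genes (-4.37), 10 of 11 mast cell and basophil genes (-5.67) and 19 of 26 stroma and endothelium genes (-2.59). In knockout spleens their medians were -0.24, -0.10, -0.06, 0.77 and -0.46, beside -0.05 for all genes, with 1 dendritic cell gene, 1 mast cell and basophil gene and 4 stroma genes lower and 1 stroma gene higher.

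B cell subsets split in the lines. Of 20 follicular and marginal zone genes 3 were higher and 13 lower (median -2.55), of 22 germinal centre genes 11 and 5 (0.42), of 14 pro-B and pre-B genes 2 and 7 (-1.35), and of 27 genes of activated B cell type lymphoma 13 and 9 (0.42). In knockout spleens 1 to 3 members of each were higher and up to 1 lower. T cell genes had 5 higher and 17 lower in the lines and 2 higher and 3 lower in knockout spleens.

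Among programmes, 21 of 26 amino acid and ER stress genes were higher in the lines and 2 in knockout spleens, Chac1 as a stepwise and Atf3 as an opposite gene. NF-kB components had 6 higher and 16 lower in the lines and 1 higher in knockout spleens. BCL2 family genes had 8 and 4 of 14, and antioxidant genes 7 and 7 of 20, in the lines. By limma 0 of either list were called in knockout spleens (2 BCL2 family genes lower and 2 antioxidant genes higher at an unadjusted p under 0.05).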
